A study of Mus musculus with 22 samples.

Results

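The genes described are 10 components of endothelin and vascular endothelial growth factor (VEGF) signalling: Edn1, Ednra, Ednrb, Ece1, Vegfa, Vegfb, Vegfc, Flt1, Nrp1 and Nrp2. They were taken as a list of names, and every probe whose transcript accession maps to one of these symbols was used, which gave 13 of the 55681 probes on the array and 10 of the 20018 genes that could be named. Expression was measured in FE1 cells, a line derived from the lung epithelium of the transgenic MutaMouse, after 24 h without particles (5 control arrays, 0 µg/ml) or with Mitsui7, a long multiwalled carbon nanotube. The low dose was 12.5 µg/ml (n = 6 arrays), the medium dose 25 µg/ml (n = 5) and the high dose 100 µg/ml (n = 6). All groups were grown in the same serum-containing medium with epidermal growth factor, and the particles were suspended by sonication in culture medium. FE1 is a single cell line grown as a monolayer, without the endothelial, smooth muscle and immune cells on which these ligands act in the lung. Each array compared 1 sample, labelled with Cy5, with a pool of RNA from 11 mouse cell lines, labelled with Cy3, and values are log2 ratios of sample to pool. Each ratio is therefore relative to that pool, and levels of different genes cannot be ranked from them.

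Endothelin-1 is a short vasoconstrictor and mitogenic peptide, made as a precursor from Edn1 and cut to its active form by the membrane protease that Ece1 encodes. It acts through a pair of G protein-coupled receptors, the products of Ednra and Ednrb, and in the lung it is known for effects on vascular and airway smooth muscle, fibroblasts and matrix deposition. VEGF-A, from Vegfa, drives endothelial growth and permeability and is abundant in the lung epithelium, VEGF-B is a related ligand of the receptor encoded by Flt1, and VEGF-C acts mainly on lymphatic endothelium. The neuropilins, from Nrp1 and Nrp2, are co-receptors that bind both VEGF ligands and the class 3 semaphorins, a family of guidance proteins that signal through plexins.

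Of the 10 genes, 2 were higher and 2 lower than in control cells at both the medium and the high dose. The ligand transcripts Edn1 (2.30-fold at the medium and 2.14-fold at the high dose) and Vegfa (1.52-fold and 1.57-fold) rose, and the co-receptor transcripts Nrp1 (1.56-fold and 1.79-fold lower) and Nrp2 (1.599-fold and 1.82-fold lower) fell. At the low dose 1 gene was called, Edn1 at 2.25-fold above controls, and Vegfa (1.46-fold, limma adjusted p 0.0021) fell short of the 1.5-fold threshold and was called with replicate numbers as the block. Of all genes tested 5.31%, 8.99% and 11.9% were called at the low, medium and high dose. The endothelin receptors, the converting enzyme, Vegfb, Vegfc and Flt1 were called at no dose. Of 11 alternative settings, 8 ended the medium dose call of Nrp1, 4 that of Vegfa, 4 that of Nrp2 and 1 that of Edn1. At the high dose the calls of Vegfa, Nrp1 and Nrp2 were each lost in 1 setting and that of Edn1 in none.

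The promoters of the 4 genes that passed are shown because these genes moved in opposite directions in the same cells. The windows are the 250 bases before the annotated start, from RefSeq on GRCm38.p6, at chr13:42301226-42301475 (plus strand) for Edn1, chr17:46032378-46032627 (minus strand) for Vegfa, chr8:128358823-128359072 (plus strand) for Nrp1 and chr1:62703067-62703316 (plus strand) for Nrp2. They end at the start that the table gives, which need not be the start used in FE1 cells. Capitals mark matches, on either strand, to the GATA motif AGATAA and the GC box GGGCGG.
Edn1: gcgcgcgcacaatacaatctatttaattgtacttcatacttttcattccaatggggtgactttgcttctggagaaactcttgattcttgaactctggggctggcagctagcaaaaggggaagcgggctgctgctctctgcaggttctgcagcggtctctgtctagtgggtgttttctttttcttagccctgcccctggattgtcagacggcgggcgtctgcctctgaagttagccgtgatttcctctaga
Vegfa: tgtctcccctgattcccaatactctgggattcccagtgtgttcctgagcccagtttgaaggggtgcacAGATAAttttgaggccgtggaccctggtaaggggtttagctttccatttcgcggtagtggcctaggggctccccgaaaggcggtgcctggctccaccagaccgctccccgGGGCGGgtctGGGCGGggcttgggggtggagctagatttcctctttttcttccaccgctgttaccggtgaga
Nrp1: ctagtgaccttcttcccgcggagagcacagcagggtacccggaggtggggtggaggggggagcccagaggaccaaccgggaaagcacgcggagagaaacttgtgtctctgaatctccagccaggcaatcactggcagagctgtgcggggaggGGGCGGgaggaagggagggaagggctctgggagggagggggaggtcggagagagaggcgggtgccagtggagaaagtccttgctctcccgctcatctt
Nrp2: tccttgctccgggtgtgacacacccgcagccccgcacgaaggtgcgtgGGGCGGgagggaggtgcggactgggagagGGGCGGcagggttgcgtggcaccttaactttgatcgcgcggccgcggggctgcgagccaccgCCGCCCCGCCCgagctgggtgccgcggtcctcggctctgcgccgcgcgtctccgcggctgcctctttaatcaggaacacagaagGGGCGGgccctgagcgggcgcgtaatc
The letters searched were the AP-1 motif TGANTCA, found in 6.85% of 27025 windows of the same length, ACGTG (16.5%), AGATAA (10.2%) and GGGCGG (33%). ACGTG is 1 form of the core of the hypoxia response element. The Edn1 window held none of the 4. The Vegfa window held 1 AGATAA and 2 GGGCGG, the Nrp1 window 1 GGGCGG and the Nrp2 window 5, of which 2 share a base. No window of the 4 held TGANTCA or ACGTG. The form GCGTG was not searched, so the lack of ACGTG does not mean that the hypoxia core is absent. Base composition differed as well, with 50.4% G and C in the Edn1 window, 59.2% for Vegfa, 64.4% for Nrp1 and 72.4% for Nrp2. A match is a description of the letters in the window.

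Between 21602 and 38145 probes per array exceeded the level of the negative control spots. The arrays lay on 5 slides, each scanned as a unit. Slide 1 carried 2 arrays of each group, slides 2, 3 and 4 carried 1 of each, and slide 5 carried 1 low and 1 high dose array, so slide was a term of every comparison. Each array was also set against the mean of the other arrays of each group, over 28879 probes. By this measure 6 of 22 arrays resembled another group best. Low dose replicate 1 (r = -0.33 with the other low dose arrays, 0.46 with the medium dose) and medium dose replicate 2 (r = -0.31 with the other medium dose arrays, 0.12 with the low dose) were the arrays of these that correlated negatively with their own group, and each of this pair resembled the group that labels assign to the other. Whether their labels were exchanged cannot be settled from these data, and if they were, the low and medium dose values of both arrays would belong to the other dose. Values without both are given below where a result depends on them. The other 4 were low dose replicate 2, medium dose replicates 1 and 5 and high dose replicate 6. The protocol describes separate exposures on more than 1 experiment day, and the paper names 3 individual experiments, but arrays are not tied to either. With 5 or 6 arrays per group, some arrays of a group would share an exposure. The model treats all arrays as independent apart from slide. The p-values therefore reflect the spread between these arrays, part of which may be technical, and not the spread between independent exposures.

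The labelled cell type was checked against marker genes. Of 8 epithelial markers 6 exceeded the negative control level on at least 4 of 5 control arrays, among them the keratins Krt8, Krt18, Krt19 and Krt7, while the adhesion gene Cdh1 did so on 0 and Epcam on 1. Of 8 alveolar markers 3 did so, and the surfactant gene Sftpb on 0 control arrays. All 8 mesenchymal markers did so, Col1a1 and Col1a2 included. Of 10 endothelial markers 2 did so, Pecam1 and Egfl7, and Cdh5, Tie1, Tek and Erg did so on 0 of 5. Of the 5 leukocyte markers on the array that could be matched, 4 did so. Detection therefore did not separate the cell types. Among the 6 detected epithelial markers, Krt8, Krt18 and Krt19 had mean control log2 ratios of -4.35, -5.62 and -4.91, far below the pool of cell lines. Cldn7 lay at -2.11, while Krt7 (-0.31) and Cldn4 (0.28) were close to the pool. Such a ratio also depends on the cell lines in the pool, so the epithelial label was not settled by these markers.

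Calls required a limma adjusted p of 0.05 or less, a difference of 1.5-fold or more and a signal above the negative control level in 4 or more arrays of either group. Of the 10 genes 9 met this last condition at each dose, Ednra being the exception. Genes with several probes are given by the brightest probe. The 10 genes were chosen with earlier results of these data known, so their counts beside the shares of all genes are a description. At the low dose 1 of 10 genes was called, against 5.31% of all 13553 named genes that met the condition (2.23% higher, 3.08% lower). The count was 4 of 10 at the medium dose, against 8.99% of 13315 genes (4.3% higher, 4.69% lower), and 4 of 10 at the high dose, against 11.9% of 13977 genes (5.49% higher, 6.46% lower). The median change over the 10 genes was -0.01, -0.09 and -0.15 on the log2 scale at the 3 doses, beside medians of 0.0006, 0.0014 and 0.0096 over all these genes.

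**Figure D1:**
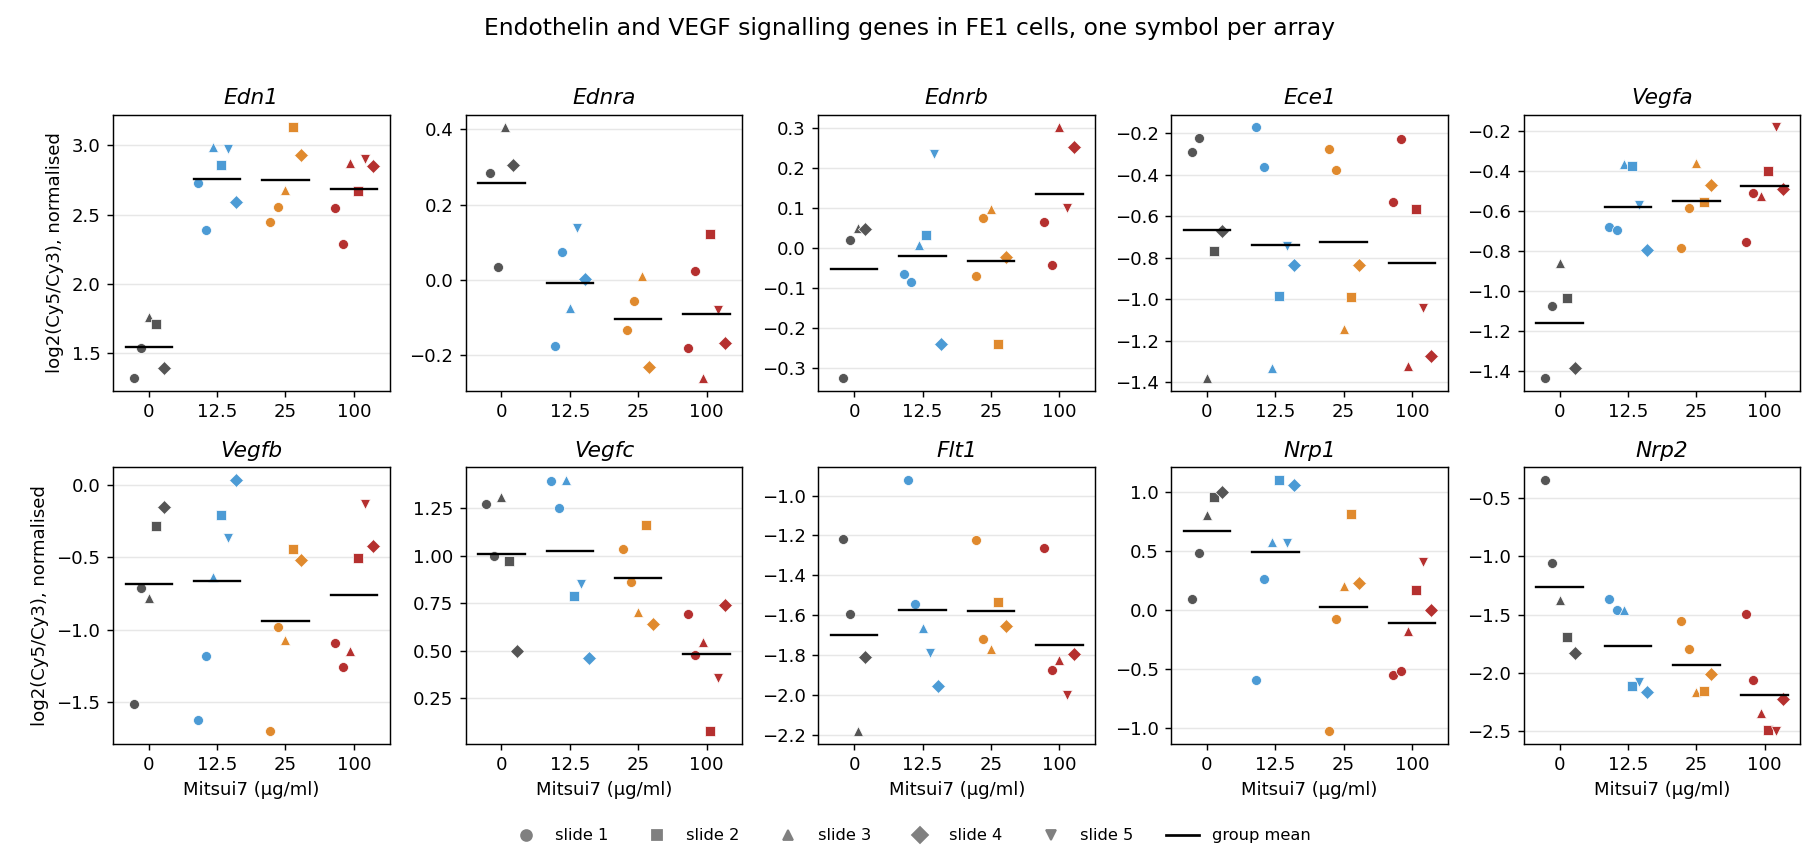
Normalised log2 ratio of Cy5 to Cy3 (vertical axes, a scale of its own for each gene) against the dose of Mitsui7 in µg/ml for the 10 genes, brightest probe, with 1 symbol per array, symbol shapes for the 5 slides and a line at each group mean. All exposed arrays lie above the control arrays for Edn1 and Vegfa, while for Nrp1 and Nrp2 the groups overlap.

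Edn1 (probe A_51_P115005, transcript NM_010104), the endothelin-1 precursor, had log2 ratios of 1.32, 1.54, 1.76, 1.71 and 1.40 in control replicates 1 to 5. Low dose values ranged from 2.39 over a median of 2.80 to 2.99. At the medium dose they were 2.45, 2.56, 2.68, 3.13 and 2.93 in replicates 1 to 5, and at the high dose they ranged from 2.29 over a median of 2.76 to 2.90. Every exposed array was thus above every control array, with a gap between 1.76 and 2.29, whereas the 3 exposed groups covered nearly the same span. Groups that did not overlap with controls were found for 4.83% of genes at the low, 9.92% at the medium and 11.4% at the high dose. From the lowest dose upwards the log2 change was 1.17 (SE 0.11), 1.20 (SE 0.11) and 1.10 (SE 0.11), with limma adjusted p of 1.4e-06, 7.4e-07 and 6.6e-07. Within each of slides 1 to 4, which hold exposed and control arrays side by side, the difference was positive, between 0.92 and 1.53 over the 12 comparisons. Without low dose replicate 1 and medium dose replicate 2 the changes were 1.12, 1.20 and 1.09. Group accounted for 78.2% of the variance of Edn1 over the 22 arrays and slide for 9.68%.

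No dose differed detectably from another for Edn1. The high dose differed from the low dose by -0.07 on the log2 scale (95% confidence interval -0.27 to 0.14), from the medium dose by -0.10 (-0.32 to 0.12), and the medium from the low dose by 0.04 (-0.19 to 0.26).

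Transcripts of the endothelin receptors and of the converting enzyme were close to the detection limit. Ednra (A_52_P156190, NM_010332), the receptor that mediates contraction, had log2 ratios of 0.28, 0.04, 0.41 and 0.30 in control replicates 1, 2, 3 and 5, and its spot was marked as an outlier on replicate 4 of the control, low and medium groups. The 5 usable low dose arrays lay at -0.18, 0.07, -0.07, 0.14 and 0.00, the 4 medium dose arrays at -0.13, -0.06, 0.01 and -0.23, and the 6 high dose arrays ranged from -0.26 over -0.12 to 0.12. All medium dose arrays were below the 4 controls, while 2 low dose arrays and 1 high dose array were above control replicate 2. The change was -0.29 (SE 0.10), -0.36 (SE 0.10) and -0.42 (SE 0.10) at the 3 doses, with limma adjusted p of 0.135, 0.043 and 0.010. The signal was well above background on 2 of the 4 control arrays and on no exposed array. The mean control signal exceeded the background on the low, medium and high dose arrays by 1.20-fold, 1.24-fold and 1.16-fold. These ratios leave out the spread between arrays, so they are not lower limits of the change. In the model the 95% confidence intervals of the change were -0.49 to -0.08, -0.57 to -0.15 and -0.62 to -0.21. With the scanner's own log ratios the changes were -1.27, -1.82 and -1.68, and with the outlier spots kept -0.14, -0.47 and -0.20, so the size of this difference is not settled.

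Ednrb (A_52_P577662, NM_007904), the second endothelin receptor, which also clears the peptide, ranged from -0.33 to 0.05 in 4 control arrays and from -0.24 to 0.30 in all exposed arrays, so the groups overlapped, although 4 of 5 usable high dose arrays were above all controls. Its change was 0.03 (SE 0.10), 0.04 (SE 0.10) and 0.16 (SE 0.10) at the 3 doses, with limma adjusted p from 0.492 to 0.951. A second, dimmer probe for the same transcript (A_55_P2089710) exceeded the negative control level on 1 array and is not read further. Ece1 (A_55_P2230638, NM_199307) ranged from -1.38 to -0.22 in controls and from -1.33 to -0.17 in exposed arrays. Its changes were -0.05 (95% confidence interval -0.28 to 0.18), -0.06 (-0.29 to 0.18) and -0.14 (-0.37 to 0.09). Slide accounted for 84.9% of the variance of Ece1 and group for 1.56%.

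Vegfa, the principal VEGF ligand, was read by a pair of probes designed on different transcripts. The brighter one (A_52_P638895, NM_001025250) gave -1.44, -1.07, -0.86, -1.03 and -1.38 in control replicates 1 to 5. Low dose values ran from -0.79 over a median of -0.625 to -0.36, medium dose values were -0.79, -0.59, -0.36, -0.55 and -0.47, and high dose values ran from -0.75 over -0.50 to -0.18. All 17 exposed arrays were above all 5 controls, though the gap, between -0.86 and -0.79, was narrow. In order of dose the log2 change was 0.55 (SE 0.10), 0.61 (SE 0.10) and 0.65 (SE 0.10), with limma adjusted p of 0.0021, 0.00061 and 0.00013. The low dose change was 1.46-fold, short of the 1.5-fold threshold by a small margin, and at the medium dose 1.52-fold. With replicate numbers instead of slides as the block, the low dose change was 0.60 and 2 genes were called at that dose, Edn1 and Vegfa. Within slides 1 to 4 the 12 differences from controls lay between 0.34 and 0.92, all positive. The medium dose call was lost with the authors' processed values (0.34, limma adjusted p 0.311), with the scanner's own ratios (0.50, below 1.5-fold), with median centring of each array (adjusted p 0.119) and without control replicate 1 (0.56), control replicate 5 (0.56) or medium dose replicate 5 (0.55), where the change was below 1.5-fold. The high dose call was lost with median centring (0.62, adjusted p 0.128).

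The second Vegfa probe (A_52_P249424, NM_001025257) gave -0.32, -0.89, -0.72, -0.75 and -0.30 in controls, -0.21 to 0.39 at the low dose, -0.25, 0.36, -0.34 and -0.32 on 4 medium dose arrays (replicates 1, 2, 4 and 5) and -0.12 to 0.29 at the high dose. Its low and high dose arrays were all above the controls, while 2 of the 4 medium dose arrays were not. Its change was 0.67 (SE 0.13, adjusted p 0.0057) and 0.77 (SE 0.13, adjusted p 0.00062) at the low and high dose, both called. At the medium dose it was 0.44 (SE 0.14, adjusted p 0.075) and was not called. The probes thus differ in which doses pass, and they share the direction at each dose. Between doses the brighter probe differed by 0.10 (95% confidence interval -0.09 to 0.29) from low to high and by 0.04 (-0.16 to 0.25) from medium to high.

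The other VEGF ligands did not follow Vegfa. Vegfb (A_52_P436628, NM_011697) ranged from -1.51 to -0.15 in controls, and from -1.62 to 0.03, -1.697 to -0.44 and -1.26 to -0.14 in the low, medium and high dose groups. Its groups overlapped, the changes were -0.07 (SE 0.16), -0.26 (SE 0.16) and -0.17 (SE 0.16), and slide accounted for 76.1% of its variance. Vegfc (A_51_P433870, NM_009506), the lymphatic ligand, gave 1.27, 1.00, 1.31, 0.97 and 0.50 in controls. It ran from 0.46 over a median of 1.05 to 1.40 at the low dose, was 1.04, 0.86, 0.70, 1.16 and 0.64 at the medium dose, and ran from 0.08 over 0.51 to 0.74 at the high dose. Of the 6 high dose arrays 3 were below every control and the other 3 were above control replicate 5 alone. The change was 0.04 (SE 0.15) and -0.13 (SE 0.16) at the low and medium dose. At the high dose it was -0.50 (SE 0.15), with a limma adjusted p of 0.049 at 1.41-fold, which is below the fold threshold. Without high dose replicate 6 this change was -0.65 and was called. Within slides the high dose difference was -0.55, -0.90 and -0.76 on slides 1, 2 and 3 and 0.24 on slide 4.

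Flt1 (A_51_P398723, NM_010228), which encodes VEGF receptor 1, had values on 19 arrays, all of them well above background. It was -1.22, -1.59, -2.18 and -1.81 in control replicates 1, 2, 3 and 5, -0.92, -1.55, -1.67, -1.79 and -1.95 in low dose replicates 1, 2, 3, 5 and 6, -1.23, -1.72, -1.77, -1.54 and -1.65 in medium dose replicates 1 to 5, and -1.26, -1.87, -1.82, -2.004 and -1.80 in high dose replicates 1, 2, 3, 5 and 6. In each group replicate 1 was the highest, and the groups overlapped throughout. The changes were 0.18 (95% confidence interval -0.15 to 0.52), 0.11 (-0.24 to 0.46) and 0.01 (-0.33 to 0.35).

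Nrp1 (A_51_P469285, NM_008737), neuropilin 1, gave 0.09, 0.48, 0.81, 0.96 and 1.01 in control replicates 1 to 5. It ran from -0.59 over a median of 0.57 to 1.10 at the low dose, was -1.02, -0.07, 0.21, 0.81 and 0.23 at the medium dose, and ran from -0.55 over -0.09 to 0.41 at the high dose. The groups overlapped, and the arrays of slide 1 were the lowest in each group. With slide in the model, the change at the low, medium and high dose was -0.23 (SE 0.18), -0.64 (SE 0.18) and -0.84 (SE 0.18), with limma adjusted p of 0.638, 0.042 and 0.0036. Within slides the high dose difference was -0.82, -0.79, -0.98 and -1.002 on slides 1 to 4, and the medium dose difference was -0.84, -0.15, -0.60 and -0.77. The low dose difference was -0.45 on slide 1, 0.14 on slide 2, -0.23 on slide 3 and 0.06 on slide 4, so it had no common sign. The medium dose call was lost in 8 of 11 alternative settings. Without medium dose replicate 1 the change was -0.48 (limma adjusted p 0.142), and without the slide term it was unchanged at -0.64 with a larger SE of 0.31 (adjusted p 0.465). The high dose call was lost without the slide term (-0.78, SE 0.30, adjusted p 0.180), with slide accounting for 49.8% of the variance and group for 32.2%.

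Nrp2, neuropilin 2, was again read by a pair of probes. The brighter one (A_52_P93910, NM_001077403) gave -0.34, -1.06, -1.37, -1.69 and -1.83 in control replicates 1 to 5. It ran from -2.16 over a median of -1.77 to -1.37 at the low dose, was -1.55, -1.79, -2.17, -2.15 and -2.01 at the medium dose, and ran from -2.50 over -2.28 to -1.50 at the high dose. The groups overlapped in part, the slide 1 arrays being the highest in each group. The change at the 3 doses was -0.45 (SE 0.15), -0.68 (SE 0.15) and -0.87 (SE 0.15), with limma adjusted p of 0.111, 0.0080 and 0.00047. All 12 within-slide differences were negative, between -1.08 and -0.09. Control replicate 1 was the highest array of all, and without it the medium dose change was -0.53 (limma adjusted p 0.020), below 1.5-fold, while the high dose change was -0.71 and was still called. Median centring ended the call at the medium dose (-0.59, adjusted p 0.784) and at the high dose (-0.90, adjusted p 0.196), and leaving out the slide term ended it at the medium dose (adjusted p 0.202). The second probe (A_65_P15245, NM_001077406) gave -0.54, 0.10, 0.20, 0.22 and 0.91 in controls and changed by -0.65 (SE 0.24), -0.96 (SE 0.24) and -1.09 (SE 0.24), with limma adjusted p of 0.175, 0.022 and 0.0046. Both probes were thus called at the medium and the high dose and neither at the low dose.

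**Figure D2:**
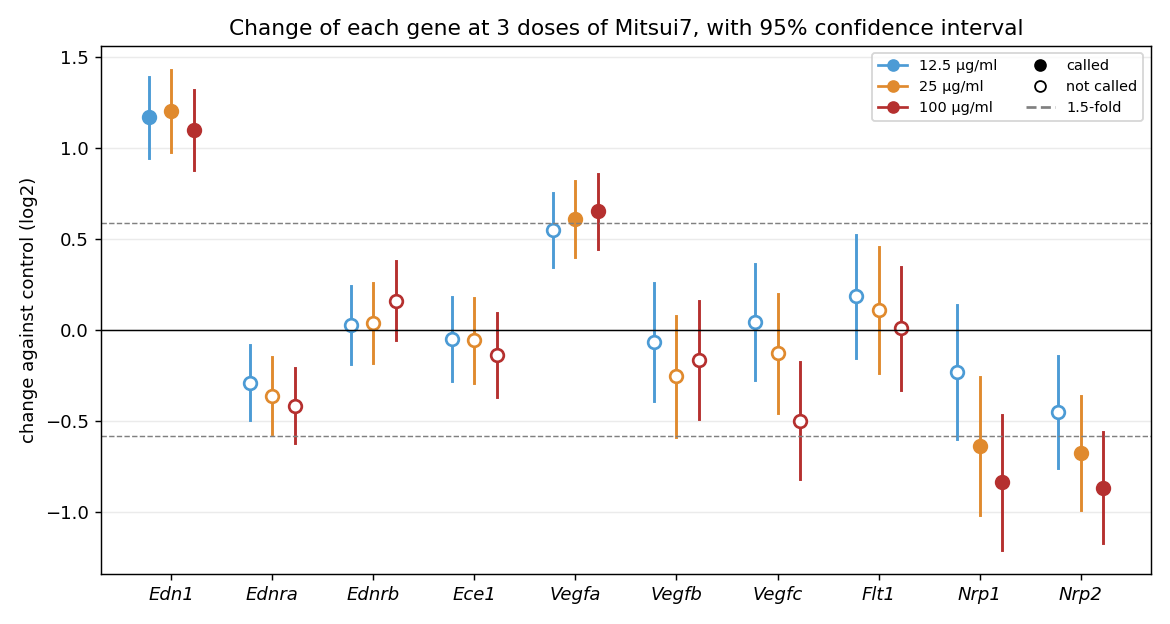
Change against control on the log2 scale (vertical axis) for the 10 genes (horizontal axis) at 12.5, 25 and 100 µg/ml, with 95% confidence intervals from the model with slide, filled symbols for called values and dashed lines at 1.5-fold. The values for Edn1 and Vegfa are similar at the 3 doses, while those for Nrp1 and Nrp2 are -0.23 and -0.45 at the low dose and -0.84 and -0.87 at the high dose.

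Doses were also compared directly. Between the high and low dose 0 of the 10 genes were called, as were 0.464% of all genes that met the detection condition, and between the high and medium dose and the medium and low dose the count was 0 of 10 beside 0% of all genes. At an unadjusted limma p under 0.05 there were 3 genes in the first comparison and 1 in each of the other two, Vegfc (-0.37) between the high and medium dose and Nrp1 (-0.41) between the medium and low dose. Among the 14216, 14075 and 13815 named genes that met the detection condition, 2128, 772 and 1202 had such a p. Of the 10 genes, those in the first comparison were Nrp1, at -0.61 on the log2 scale (95% confidence interval -0.95 to -0.26, limma adjusted p 0.160), Vegfc, at -0.54 (-0.84 to -0.24, adjusted p 0.141), and Nrp2, at -0.42 (-0.70 to -0.13, adjusted p 0.316). All 3 were lower at the high than at the low dose. The call depended on single arrays. Without low dose replicate 1 and medium dose replicate 2, or without low dose replicate 1 alone, 1 gene was called between the high and low dose, Nrp1, and the same held with replicate numbers as the block. Without high dose replicate 6, 1 gene was called, Vegfc. No difference between doses that holds in all of these settings was therefore found for the neuropilins or Vegfc.

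**Figure D3:**
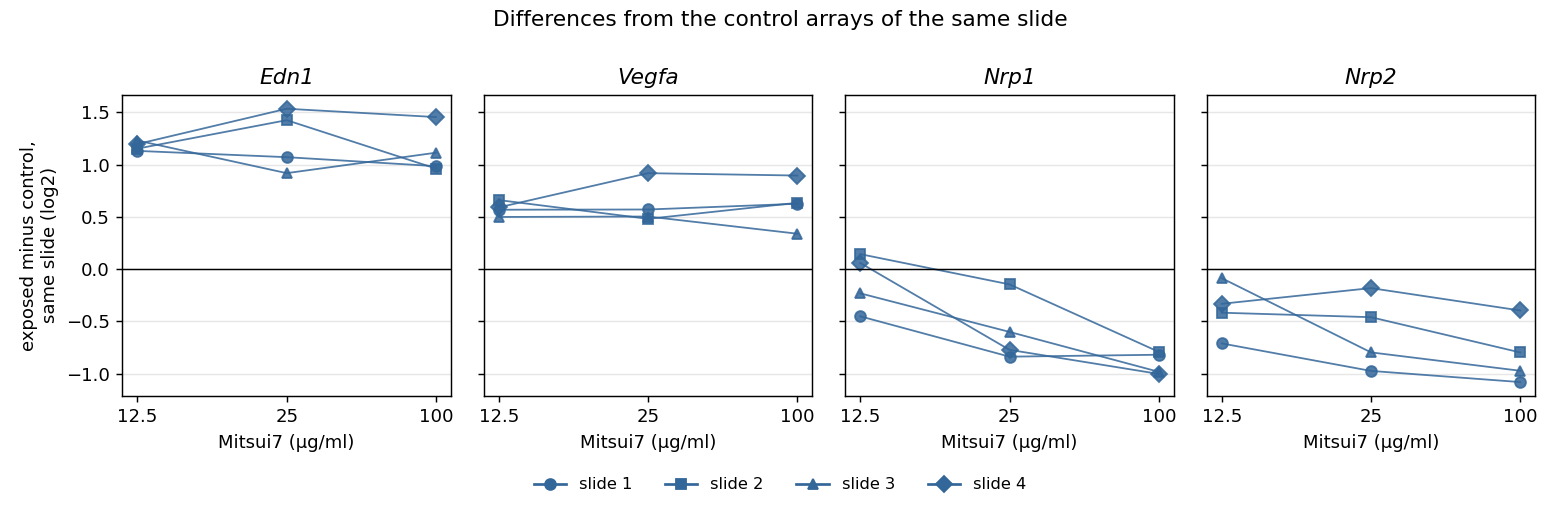
Difference between exposed and control arrays of the same slide on the log2 scale (vertical axis) against dose in µg/ml for Edn1, Vegfa, Nrp1 and Nrp2, with 1 line and symbol shape per slide. Slide 1 holds the mean of 2 arrays per group and slides 2 to 4 hold 1 array per group. The differences of Edn1 and Vegfa are positive and those of Nrp2 negative on every slide, and those of Nrp1 are between -1.002 and -0.79 at the high dose on all 4.

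The genes varied together to different degrees once the slide means were removed. Over the 22 arrays, which include the difference between control and exposed cells, Edn1 and Vegfa had a Pearson r of 0.88, Vegfa and Nrp2 -0.75, Vegfb and Nrp1 0.73 and Vegfc and Nrp2 0.69. With group means removed as well, r was 0.24 for Edn1 and Vegfa, -0.16 for Vegfa and Nrp2, 0.83 for Vegfb and Nrp1 and 0.60 for Vegfc and Nrp2. The first of these relations is thus mostly between groups, and that of Vegfb and Nrp1 remained with the group and slide terms removed. Edn1 and Vegfc had an r of 0.71 with both terms removed and of -0.09 with slide means alone removed. Only slide 1 holds more than 1 array of a group. Each value is a ratio to the same reference pool, and the values of 1 array come from 1 hybridisation. The named genes whose slide-adjusted pattern was most like that of Edn1 over the 22 arrays, among 11235 probes, were Prl2c1 (r = 0.97), Prl2c5 (r = 0.97) and Tcim (r = 0.96). With group means also removed, these r were 0.55, 0.54 and 0.57. Prl2c1 and Prl2c5 belong to a family of prolactin-like genes of near-identical sequence, so their probes may read each other's transcripts. They changed by 2.94, 3.00 and 3.07 and by 2.99, 3.22 and 3.24 at the 3 doses, and Tcim by 1.96, 2.08 and 1.80. For Vegfa the nearest were the transcription factor gene Sox4 (r = 0.95), the thioredoxin reductase gene Txnrd1 (r = 0.94) and the kinase gene Mapk6 (r = 0.94), with high dose changes of 1.10, 1.08 and 1.33. Their r was 0.76, 0.74 and 0.66 with group means also removed.

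Other genes of the same pathways were followed as lists, which were chosen with earlier results of these data known. Their counts beside the shares of all genes are a description. Those shares were 5.31%, 8.99% and 11.9% called at the low, medium and high dose, and 3.08%, 4.69% and 6.46% called lower. Of 5 further endothelin genes (Edn2, Edn3, Ece2, Kel and Mme) 0 were called at any dose. The 1 gene with an unadjusted limma p under 0.05 at each dose was the converting enzyme gene Ece2 (-0.43, -0.37 and -0.33, lowest adjusted p 0.107), and 3 of the 5 genes met the detection condition at no dose. Of the other VEGF family genes 1 of 4 was called, Vegfd, a second lymphatic ligand, which fell by 0.69 (SE 0.15), 1.15 (SE 0.15) and 1.21 (SE 0.15) on the log2 scale at the 3 doses, with limma adjusted p of 0.0088, 5.5e-05 and 1.2e-05. The remaining ligand Pgf (0.04, -0.01 and -0.06) and the receptor gene Kdr (0.10, -0.12 and 0.10) were close to controls. Flt4, the receptor for the lymphatic ligands, changed by -0.05, -0.16 and -0.18 and exceeded the negative control level on 3 of 5 control arrays. The median change of this list over the genes detected was -0.002, -0.12 and -0.06.

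The neuropilin partners, class 3 semaphorins and plexins, included 11 of 12 detected genes. At the low dose 1 was called lower, at the medium dose 4, and at the high dose 3 lower and 1 higher, with medians of -0.16, -0.22 and -0.20. Of all genes tested 3.08%, 4.69% and 6.46% were called lower at these doses, and 5.49% higher at the high dose. Plxna4, a plexin co-receptor, fell by 0.84 (SE 0.14), 0.82 (SE 0.14) and 1.01 (SE 0.14) on the log2 scale at the 3 doses. A second, dimmer probe of it changed by -0.14 at the high dose and was detected on 2 arrays. The secreted semaphorin Sema3f, a ligand of neuropilin 2, fell by 0.76 (SE 0.09) and 0.87 (SE 0.09) at the medium and high dose, with limma adjusted p of 2.5e-05 and 1.8e-06. Sema3c fell by 0.80 (SE 0.16) and 1.06 (SE 0.16) at the same doses, and its second probe changed by -0.36 (adjusted p 0.335) and -0.83 (adjusted p 0.0029). Sema3b, at -0.59 (SE 0.14), was called at the medium dose, with -0.58 and -0.52 at the other doses. Plxna2 rose by 0.74 (SE 0.13, adjusted p 0.00054) at the high dose. The other detected members, Sema3a, Sema3d, Sema3e, Plxna1, Plxna3 and Plxnd1, were called at no dose.

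**Figure D4:**
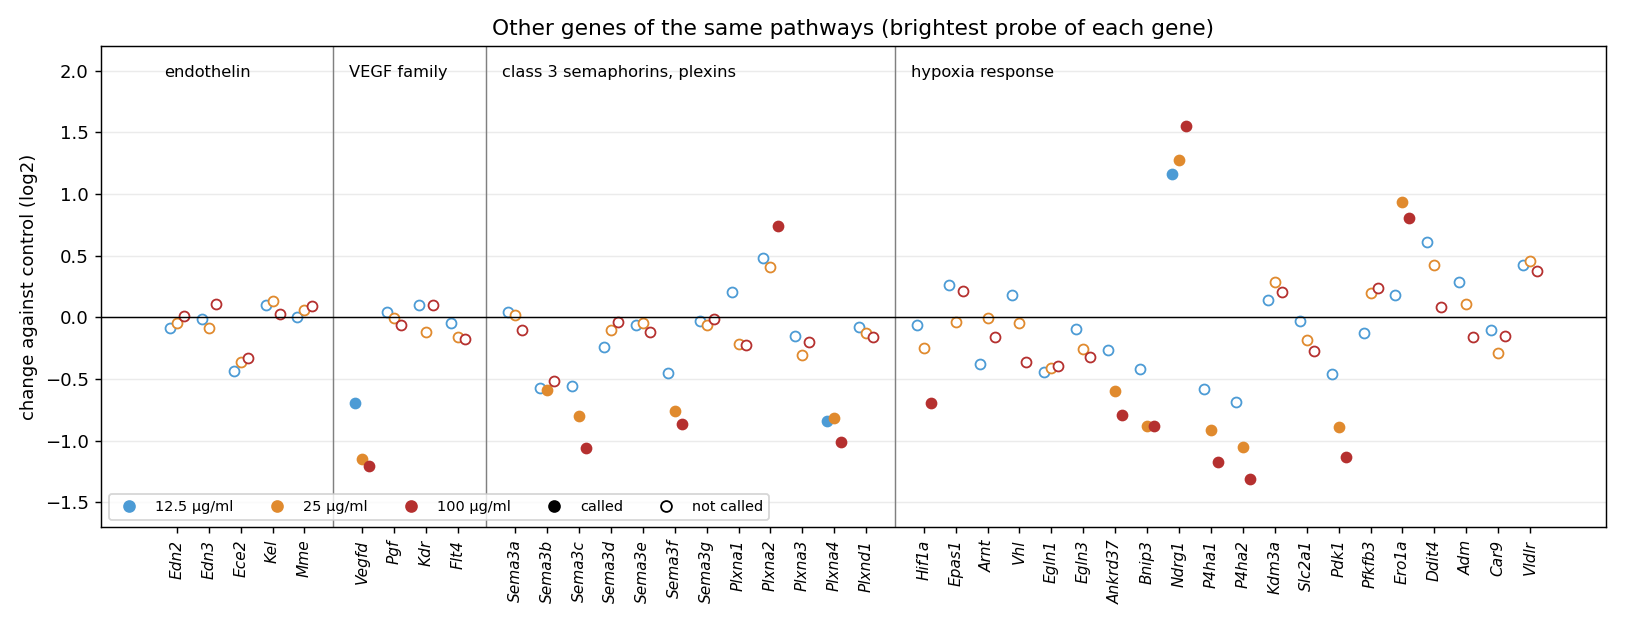
Change against control on the log2 scale (vertical axis) at 12.5, 25 and 100 µg/ml for the 41 further genes of the endothelin, VEGF, semaphorin and plexin and hypoxia lists (horizontal axis), brightest probe of each, filled where called. Vegfd and Plxna4 are lower at each dose, and in the hypoxia list Ndrg1 is higher at each dose while P4ha1, P4ha2 and Pdk1 are at or below -0.89 at the medium and high dose.

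Since Vegfa is a known target of the hypoxia-inducible factors, 20 genes of the hypoxia response were examined beside it. All 20 were detected. At the low dose 1 was called higher and 0 lower, at the medium dose 2 higher and 5 lower, and at the high dose 2 higher and 6 lower, with medians of -0.08, -0.12 and -0.22. The shares of all genes tested were 2.23% higher and 3.08% lower at the low dose, 4.3% and 4.69% at the medium dose and 5.49% and 6.46% at the high dose. Ndrg1, a stress-responsive gene, rose by 1.16 (SE 0.12), 1.27 (SE 0.13) and 1.55 (SE 0.12) on the log2 scale, and Ero1a, an oxidase of the endoplasmic reticulum, rose by 0.94 (SE 0.24) and 0.80 (SE 0.23) at the medium and high dose. The collagen prolyl hydroxylase genes P4ha1 (-0.91, SE 0.15, and -1.18, SE 0.15) and P4ha2 (-1.05, SE 0.23, and -1.31, SE 0.23) fell at the medium and high dose. At the same doses Pdk1, a regulator of pyruvate use, fell (-0.89, SE 0.17, and -1.13, SE 0.17), as did the mitophagy receptor gene Bnip3 (-0.88, SE 0.20, and -0.88, SE 0.19) and Ankrd37 (-0.598, SE 0.17, and -0.79, SE 0.17). A second Bnip3 probe changed by -1.195 and -1.38, and another by -0.52 (limma adjusted p 0.243) and -0.83 (adjusted p 0.018). Hif1a itself fell by 0.70 (SE 0.15) at the high dose. The classical targets Slc2a1 (-0.03, -0.19 and -0.27), Adm (0.28, 0.11 and -0.16) and Car9 (-0.10, -0.29 and -0.16) and the oxygen sensor genes Egln1 and Egln3 were not called. The list thus did not move in 1 direction with Vegfa.

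Markers of other cell types were set beside these results. Of the 8 mesenchymal markers 3, 4 and 4 were called lower at the low, medium and high dose and 0 higher. Beside them, 3.08%, 4.69% and 6.46% of all genes tested were called lower at these doses. The mesenchymal markers called were Col1a1 (-1.34 at the high dose, SE 0.16), Col1a2 (-1.52, SE 0.16), Pdgfra (-1.53, SE 0.10) and, from the medium dose on, Pdgfrb (-1.34, SE 0.16). The other 4 were called at no dose, with high dose changes of 0.14 (Vim), -0.70 (Acta2), -0.09 (Tagln) and -0.02 (Thy1). The mean log2 ratio over the 6 mesenchymal markers with a value on all arrays, which leaves out Vim and Tagln, ranged from -0.31 to -0.03 in controls. It ranged from -1.45 to -0.47, -1.58 to -0.99 and -1.56 to -0.997 in the low, medium and high dose groups. This mean thus fell in the direction of Nrp1 and Nrp2. Its part in the neuropilin results was not tested, and in RNA from whole cultures a smaller share of one kind of cell and less transcript per cell cannot be told apart. Of the epithelial markers Krt7 was called lower at the medium and high dose (-0.79 and -0.85) and the others at no dose, and the mean over 6 of them ranged from -2.38 to -1.53 in controls and -2.44 to -2.005 at the high dose. The alveolar markers had 1 called lower at each dose, Hopx (-1.33, -1.59 and -2.08). Endothelial markers had 0 called at any dose by limma, with means over 9 of them between -0.11 and 0.07 on all arrays, and leukocyte markers 0 as well, with means over 5 of them between -2.43 and -1.45. In these last lists 1 gene had an unadjusted limma p under 0.05, the undetected Tie1 at the high dose (0.24, adjusted p 0.101).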

How the data were processed

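RNA from FE1 cells was hybridised to 22 Agilent mouse arrays, with the sample in Cy5 and Universal Mouse Reference RNA in Cy3 on every array and no dye swap. Per the file headers, the deposited scanner files hold median spot intensity of each channel and log10 ratios from Feature Extraction 10.7.3.1 at 3 µm, whereas the methods name another version of that software. The authors also deposited a table of processed log2 ratios, of which scale and normalization are not stated in the sources used here. It runs in the same direction as the scanner values (r of 0.840 to 0.990 with its own array, column medians of 0.0043 to 0.0267, slopes of 0.573 to 0.981). Over all probes 18 of 22 arrays correlated best with their own column and 4 with another, and with slide means removed 22 of 22 did so with their own (lowest r 0.343).

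Control spots (3671 of 62976) were removed, and spots marked as non-uniform or as population outliers were set to missing. Log2 ratios of Cy5 to Cy3 median intensity were normalised by loess within each array, without background subtraction, and spots of 1 probe were combined by their median. A probe was detected where Cy5 exceeded the trimmed mean (5%) plus 3 trimmed standard deviations of 308 negative control spots. Symbols were assigned from transcript accessions through the RefSeq table (GRCm38.p6) for 26413 of 55681 probes, giving 20018 genes. Promoter windows came from the RefSeq promoter table of the same assembly.

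Group and slide were fitted in limma 3.58.1 (R 4.3.3) over all 22 arrays, with Benjamini-Hochberg adjustment over 55681 probes. The number of arrays limits the precision. Scripts were tested on simulated data. Genes named were all 10 members, the called genes and defining members of the pathway and marker lists, and the 3 named genes most correlated with Edn1 and with Vegfa. The members and the lists (endothelin, VEGF, semaphorin and plexin, hypoxia and cell type markers) were chosen with earlier results of these data known. Alternatives were no slide term, a replicate block, median centring, normexp on median signals, the scanner's ratios, the deposited processed values, outlier spots kept, the compared groups alone, an ordinary linear model, other thresholds, and leaving out arrays or slide 1. Replicate numbers in the titles largely follow slides. Deviations from group means correlated at 0.187 to 0.819 (median 0.554) over 27 pairs of arrays with the same number on the same slide. They correlated at 0.270 to 0.491 over 4 pairs with the same number on different slides. Over 16 pairs with different numbers on the same slide they correlated at 0.063 to 0.582 (median 0.328). Over 134 pairs that shared neither the range was -0.713 to 0.504. On the same slide the ranges overlap, so pairing by number apart from slide is not established. The main fit used slide, and number was the block in 1 alternative.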

Additional observations from a re-analysis of the deposited data

Results flagged for a closer look

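In 40 groups of 4 to 6 arrays of the 10 genes, 2 arrays stood apart from the rest of their group by Dixon's test at the 95% level, which by chance happens in about 1 of 20 groups. The log2 ratio of Ednrb was -0.3261 on control replicate 1, whereas the other 3 usable control arrays lay between 0.0191 and 0.0489. The log2 ratio of Flt1 was -1.2617 on high dose replicate 1, whereas the other 4 usable high dose arrays lay between -2.0037 and -1.7953. Both arrays were on slide 1.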

How the results depend on the processing

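The higher level of Edn1 was called at the low and high dose in all alternatives that refitted the comparison, between 0.99 and 1.22 at the low and 1.02 and 1.17 at the high dose on the log2 scale. Without slide 1 the number of genes called at the medium dose was 0. With 3 arrays per group left, detection in 4 cannot be met. Edn1 (1.29, limma adjusted p 0.00058) and Vegfa (0.63, adjusted p 0.027) failed on this condition alone. Nrp1 (-0.51, adjusted p 0.174) and Nrp2 (-0.48, adjusted p 0.162) also fell short of 1.5-fold and of the adjusted p threshold. At the low dose the count of 1 became 2 with the replicate block, with no fold threshold and with any probe of a gene counted, stayed 1 without low dose replicate 1 and medium dose replicate 2, and was 1 to 2 when 1 array at a time was left out, Vegfa being added without control replicate 2 or control replicate 3. At the medium dose the count of 4 became 2 without the slide term, with the scanner's ratios, with the deposited processed values and with the compared groups alone, 1 with median centring and with a 2-fold threshold, and stayed 4 without low dose replicate 1 and medium dose replicate 2. It was 1 to 4 when 1 array was left out, with 1 without control replicate 1 and 2 without control replicate 5 or medium dose replicate 5. At the high dose the count of 4 became 2 with median centring and 1 with a 2-fold threshold, and was 4 to 5 with 1 array left out. Between the high and low dose the count of 0 became 1, Nrp1, with the replicate block and without low dose replicate 1 and medium dose replicate 2, and was 0 to 1 with 1 array left out. The replicate block changed no other call of the 10 genes.

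Directions that turned belonged to small changes that were not called. Ednrb at the low dose was -0.0754 with median centring, -0.0439 with the compared groups alone and -0.0294 without slide 1, and at the medium dose -0.1302 with median centring, -0.0688 without slide 1 and -0.0125 without low dose replicate 1 and medium dose replicate 2. Ece1 was 0.0302 and 0.0517 at the low and medium dose with the scanner's ratios. Vegfb at the low dose was 0.0248 without the slide term, 0.0535 without slide 1 and 0.0264 without those 2 arrays. Vegfc at the low dose was -0.0955 with median centring, -0.0367 without slide 1 and -0.005 without those 2 arrays. Flt1 at the high dose was -0.0499 without the slide term, -0.0252 with normexp and -0.0043 without those 2 arrays. With 1 array left out, Ednrb ranged from -0.0533 to 0.099 at the low and -0.042 to 0.0836 at the medium dose, Ece1 from -0.0983 to 0.0087 and -0.1071 to 1e-04, Vegfb at the low dose from -0.1711 to 0.0492, Vegfc at the low dose from -0.0348 to 0.1357 and Flt1 at the high dose from -0.1009 to 0.1303. The cause was not tested for any of these. Signals near background limit Ednra, Ednrb and Ece1. The normexp setting used median signals, since mean signals were not used here.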
